A study of Danio rerio with 26 samples.

Results

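In control zebrafish, 40 transcripts were abundant in the liver and barely present in the brain, and their levels were followed in the liver of both sexes under alcohol and after withdrawal. The members were selected on control levels: at least 200 TPM in each of the 4 control livers and below 5 TPM in each of the 5 control brains. TPM, the relative abundance of a transcript within its library, was used as the authors deposited it. This selected 40 of 57918 transcripts, and 40 of the 277 that reached 200 TPM in all control livers. The other 237 of those 277 were at 5 TPM or more in at least 1 control brain.

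The fish were adult zebrafish (Danio rerio) of the short fin AB strain, with males and females in separate tanks. Alcohol-exposed fish were moved each day into fresh water with 0.5% ethanol for 9 weeks, control fish were moved daily into water free of ethanol, and both were also used for breeding in the later weeks. Withdrawal fish had come off the exposure, and how long they had done so is not given in the sources used here. The tissue of a group was pooled, and no label says that the libraries of a group hold different fish, so that p-values reflect only the spread between libraries, which may be technical. Each combination of sex and exposure had 2 liver libraries. In the brain, control females and withdrawal males had 3 libraries and the other 4 groups had 2.

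The liver makes most proteins of the blood plasma and carries out much of the body's metabolism, including the oxidation of ethanol, and its most abundant transcripts often encode secreted carriers and metabolic enzymes. In egg-laying fish the liver also differs by sex, because the female liver makes egg yolk precursors under the control of oestrogen. The files list Ensembl transcript identifiers and pair none of them with a gene, and no table used here links them, so no gene name, role, position or sequence is given and the tissue labels were not checked against marker genes.

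The replicate libraries were not equally close. The median absolute log2 difference between the 2 libraries of a group was 0.0738 in alcohol-exposed female livers and 0.0776 in withdrawal female livers, against 0.247 to 0.286 in the other 4 groups. Since TPM holds no read numbers, the depth is unknown, and whether these close pairs differ by more than sampling noise was not tested. For most comparisons below, counts of calls are given also with each close pair averaged and counted as 1 library, an alternative chosen after seeing the data. The lone library of each averaged group is then assumed to vary like the other groups. Averaging also leaves fewer libraries to estimate the spread. The shares of all tested transcripts given as called are from the fit that keeps every library. They do not match the averaged counts or the counts of calls from any other fit, such as those without a single library. Whether a lower count in such a fit is particular to the members was therefore not tested.

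The values in control libraries chose the members and are given as description. Members were the less abundant end of the abundant liver transcripts. Their mean over the 4 control livers ran from 277 to 2076 TPM with a median of 469, while the other 237 abundant transcripts had a median of 1573 TPM. Of the 159 abundant transcripts with a control liver mean of 1000 TPM or more, 3 were members, and of the 118 below that level 37 were. The remaining abundant transcripts were mostly well present in brain: the highest control brain library was at 200 TPM or more for 174, from 20 to below 200 for 29 and from 5 to below 20 for 34.

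The most abundant member, ENSDART00000027072.8, stood at 2347 and 2279 TPM in control males and at 2451 and 1229 TPM in control females. It reached 3796 and 3460 TPM in alcohol-exposed males, 1327 and 1237 TPM in alcohol-exposed females, 1865 and 2901 TPM in withdrawal males and 1639 and 1698 TPM in withdrawal females. ENSDART00000173568.1 followed at 1826 and 2099 TPM in control males and 1148 and 459 TPM in control females, and ENSDART00000051448.6 at 1666 and 1500 TPM and at 768 and 419 TPM. The 3 together held 20.3% of the members' TPM in control livers, and the 8 most abundant members held 37.8%.

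Some members were close to the thresholds. The lowest control liver values inside were 206 and 208 TPM, and the nearest transcripts outside, which met the brain limit, were at 199 and 191 TPM. The highest control brain values inside were 4.84 and 4.6 TPM, and the nearest outside, which met the liver limit, were at 5.02 and 5.03 TPM.

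In control brain the members were low but not absent. None was listed at 0 in all 5 control brains, none was below 1 TPM in all 5, and 36 of 40 were at 1 TPM or more in all 3 control female brains. The median level over members was 0.725 and 0.185 TPM in the 2 control male brains and 2.36, 2.17 and 2.39 TPM in the 3 control female brains. The ratio of the control liver mean to the control brain mean ran from 153 to 1486 with a median of 313. The 2 tissues were quantified in separate tables, so these ratios are a description of level only.

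Across the 12 livers the members varied between 2.02-fold and 16484-fold, with a median of 3.91-fold between the lowest and highest library. The widest range was that of ENSDART00000063416.4, and its size depends on a lowest value near the floor, at 0.07 TPM. The steadiest was ENSDART00000024350.6, between 314 and 634 TPM, and 22 of 40 stayed within a 4-fold range. A range of more than 10-fold was seen for 8. All 40 met 200 TPM in controls by the rule, and 25 did so in all 12 livers. Of the 15 that did not, 14 were below 200 TPM in a female liver and 3 in a male liver. Alcohol-exposed males had the highest group mean for 24 members and withdrawal males for 11, while the lowest group mean lay in withdrawal females for 19, in alcohol-exposed females for 9 and in control females for 7.

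The members' summed share of TPM separated the sexes under exposure. It was 4.20% and 4.30% in alcohol-exposed males against 1.66% and 1.64% in alcohol-exposed females, and 3.04% and 3.62% in withdrawal males against 1.48% and 1.53% in withdrawal females. In controls it was 2.62% and 2.35% in males and 2.44% and 1.56% in females, where the sexes overlapped. Every member had to reach 200 TPM in the control livers of both sexes, which limited how far the sexes could part there. The other 237 abundant transcripts held 65.0% to 66.3% of TPM in alcohol-exposed males, 56.1% to 56.9% in alcohol-exposed females, 63.2% to 63.8% in withdrawal males and 43.8% to 44.0% in withdrawal females. In controls they held 73.9% and 71.9% in males against 59.7% and 51.0% in females, so this set separated the sexes in controls too. In pooled tissue, fewer cells of a type and less RNA per cell cannot be told apart.

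**Figure D1:**
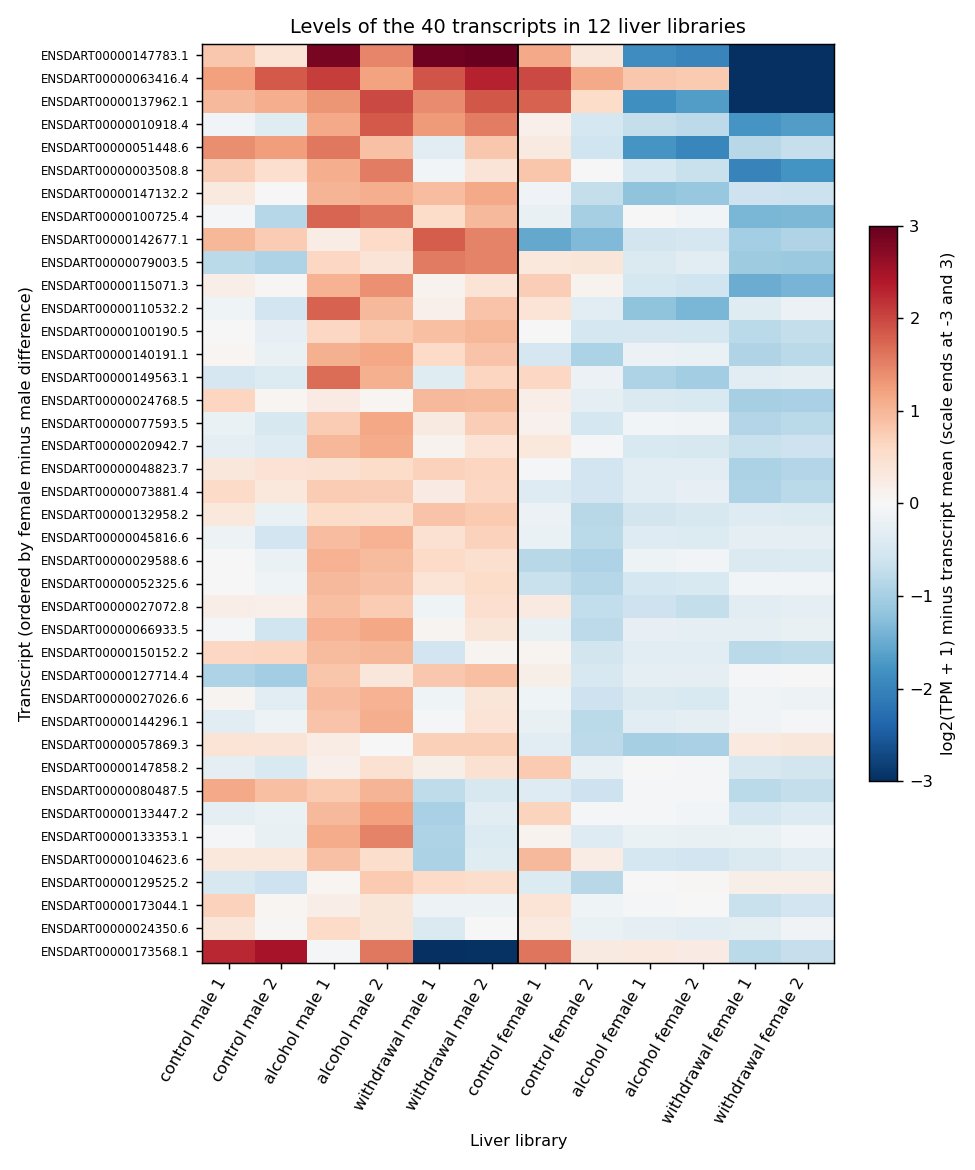
Deposited levels of the 40 transcripts (rows, ordered by their female minus male difference) in the 12 liver libraries (columns, males left of the line), as log2(TPM + 1) minus the transcript's mean over the libraries, with colours ending at -3 and 3. Alcohol-exposed and withdrawal males are above the transcript mean for most members, and the darkest cells are 3 members in withdrawal females and 1 in withdrawal males.

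Differences between the sexes were tested in alcohol-exposed and withdrawal livers, which took no part in choosing the members. Levels were rescaled between libraries, taken as log2(TPM + 1), and tested with limma over 21158 liver transcripts. Calls needed an adjusted p (Benjamini-Hochberg) below 0.05. All log2 differences below are on that scale. All 40 members passed the filter of at least 1 TPM in at least 2 livers.

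Averaged over alcohol and withdrawal, 36 of 40 members were lower in females and 1 was higher, where 22.3% of all tested transcripts were called lower, 21.7% higher and 44.0% in either direction. The median female minus male difference was -1.14 over the members and 0.00 over all tested transcripts. Among the other 237 abundant transcripts 67 were lower and 116 higher in females, with a median of 0.47. Without rescaling the member counts were 34 lower and 0 higher, after quantile normalisation 31 and 1, and with the close pairs averaged 31 and 0.

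Under alcohol 33 members were lower in females and none was higher, against 14.3% lower, 15.3% higher and 29.6% in either direction over all tested transcripts. The difference was negative for all 40 members, with a median of -1.15, although after quantile normalisation it was negative for 39. With the close pairs averaged 15 were called, all lower. After withdrawal 26 were lower and 1 was higher, against 21.4%, 19.4% and 40.8% in either direction over all tested transcripts, with a negative sign for 36. The median ratio of male to female mean TPM over the members was 2.43 under alcohol and 1.87 after withdrawal. With the close pairs averaged 17 were lower and 1 higher. Called lower under both conditions were 22 members, 11 under alcohol alone and 4 after withdrawal alone, and 2 were called in neither. The remaining member was called higher after withdrawal. Shares of all tested transcripts in these classes are not given, so this split only describes the members.

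Averaged over alcohol and withdrawal, ENSDART00000147783.1 had the lowest level in females relative to males among the members. After withdrawal alone, ENSDART00000063416.4 was lower still. ENSDART00000147783.1 stood at 380 and 286 TPM in control males and 480 and 275 TPM in control females, which overlapped. Males reached 1553 and 603 TPM under alcohol and 1632 and 1694 TPM after withdrawal. Females were at 58.4 and 54.5 TPM under alcohol and at 7.61 and 9.40 TPM after withdrawal, so that no exposed female library came near a male one. Its averaged female minus male difference was -5.74 (SE 0.30, limma adjusted p = 3.46e-06) and lay between -6.11 and -5.39 when single libraries were left out.

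ENSDART00000063416.4 differed between the sexes after withdrawal. It stood at 540 and 833 TPM in control males, 908 and 511 TPM in control females, 973 and 532 TPM in alcohol-exposed males and 408 and 396 TPM in alcohol-exposed females. After withdrawal it was at 852 and 1154 TPM in males and at 0.07 and 0.31 TPM in females. The difference between the sexes was -9.61 after withdrawal (SE 0.31, limma adjusted p = 7.07e-07) and -0.71 under alcohol (SE 0.31, limma adjusted p = 0.125).

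The one member that was higher in females was ENSDART00000173568.1, singled out here for that count, with an averaged difference of 1.18 (SE 0.37, limma adjusted p = 0.0321). Under alcohol its male libraries, at 372 and 1133 TPM, spanned the female ones at 464 and 448 TPM, and after withdrawal females were at 217 and 235 TPM and males at 19.4 and 47.6 TPM. Its difference was -0.38 under alcohol (SE 0.53, limma adjusted p = 0.639) and 2.74 after withdrawal (SE 0.53, limma adjusted p = 0.00409). The averaged call depended on the processing: without rescaling or without the filter no member was called higher in females.

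In controls the sexes were closer, as description, since these libraries chose the members. After rescaling, both female libraries lay below both male ones for 20 members and above them for 5, which became 12 and 6 without rescaling and 12 and 9 after quantile normalisation. After rescaling 34.7% of all tested transcripts were below, 39.9% above and 74.6% either. Without rescaling 29.1% were below and 42.4% above, and after quantile normalisation 35.4% and 38.8%. The median female minus male difference in controls was -0.38, and it was -0.17 without rescaling and -0.02 after quantile normalisation. One member, chosen after its values were seen, was ENSDART00000079003.5, at 283 and 261 TPM in control males and 612 and 629 TPM in control females. Males were at 752 and 640 TPM under alcohol and 1447 and 1380 TPM after withdrawal, and females were at 362 and 390 TPM and at 234 and 226 TPM.

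**Figure D2:**
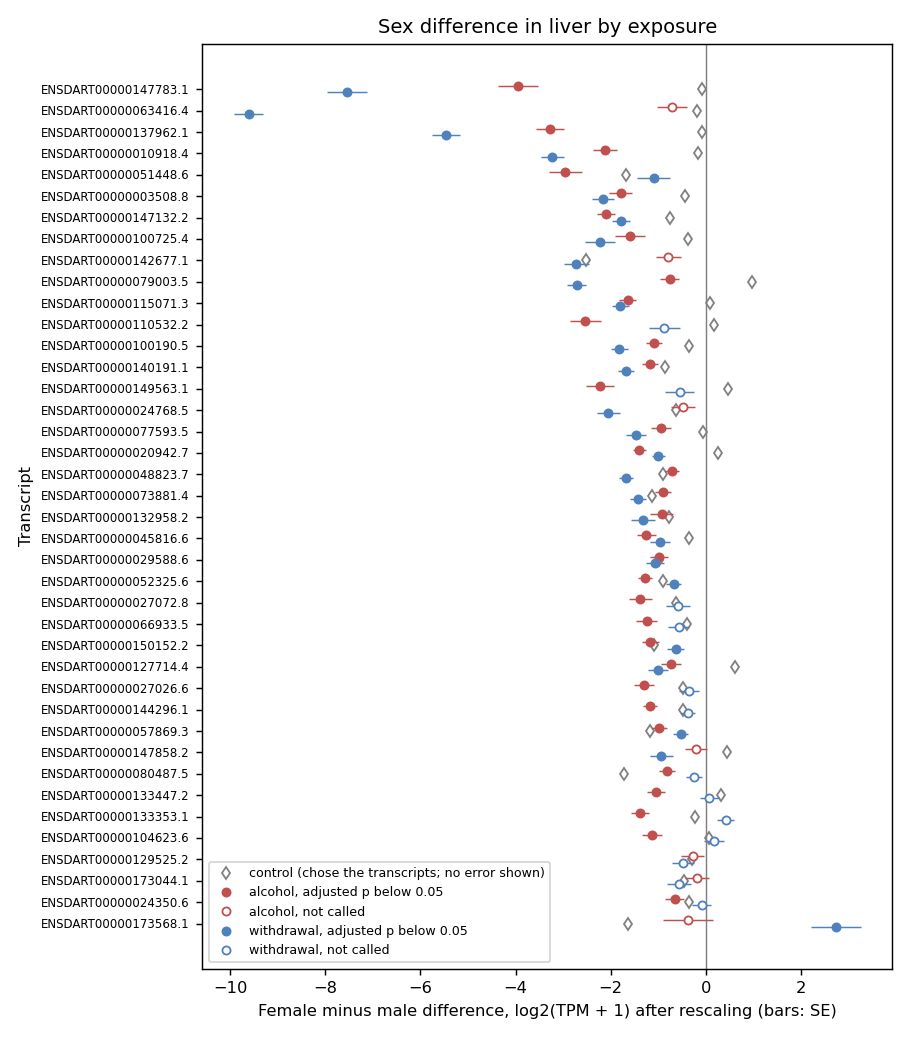
Female minus male difference in liver for each of the 40 transcripts, in log2(TPM + 1) after rescaling, under alcohol (red) and after withdrawal (blue) with SE bars and filled points at a limma adjusted p below 0.05; grey diamonds are controls. Red and blue points lie left of 0 for 40 and 36 transcripts, and the blue point at 2.74 is the 1 called higher in females.

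From alcohol to withdrawal, called members were lower more often than higher. Averaged over the sexes, 17 of 40 were lower and 1 was higher, where 20.6% of all tested transcripts were called lower and 20.4% higher. In either direction this was 18 of 40 members, or 45.0%, close to the 40.9% over all tested transcripts. The median change was -0.32 over the members, -0.32 over the other 237 abundant transcripts, of which 96 were lower and 15 higher, and 0.00 over all tested transcripts. With the close pairs averaged 8 members were lower and 1 higher.

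The member that rose was ENSDART00000057869.3. It went from 462 and 402 TPM to 656 and 657 TPM in males and from 197 and 202 TPM to 483 and 499 TPM in females, with no overlap in either sex. The averaged change was 0.96 (SE 0.11, limma adjusted p = 0.000419), and it was called in both sexes. Control levels were 527 and 518 TPM in males and 316 and 229 TPM in females.

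The largest fall with all withdrawal libraries below all alcohol ones was that of ENSDART00000173568.1. It fell from 372 and 1133 TPM to 19.4 and 47.6 TPM in males, and stood at 464 and 448 TPM under alcohol and 217 and 235 TPM after withdrawal in females. The averaged change was -2.67 (SE 0.37, limma adjusted p = 0.000938), and the female change alone was not called (-1.11, SE 0.53, limma adjusted p = 0.155). ENSDART00000080487.5 fell in both sexes, from 742 and 870 TPM to 253 and 307 TPM in males and from 409 and 422 TPM to 246 and 262 TPM in females. Its averaged change was -1.10 (SE 0.12, limma adjusted p = 0.000271).

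**Figure D3:**
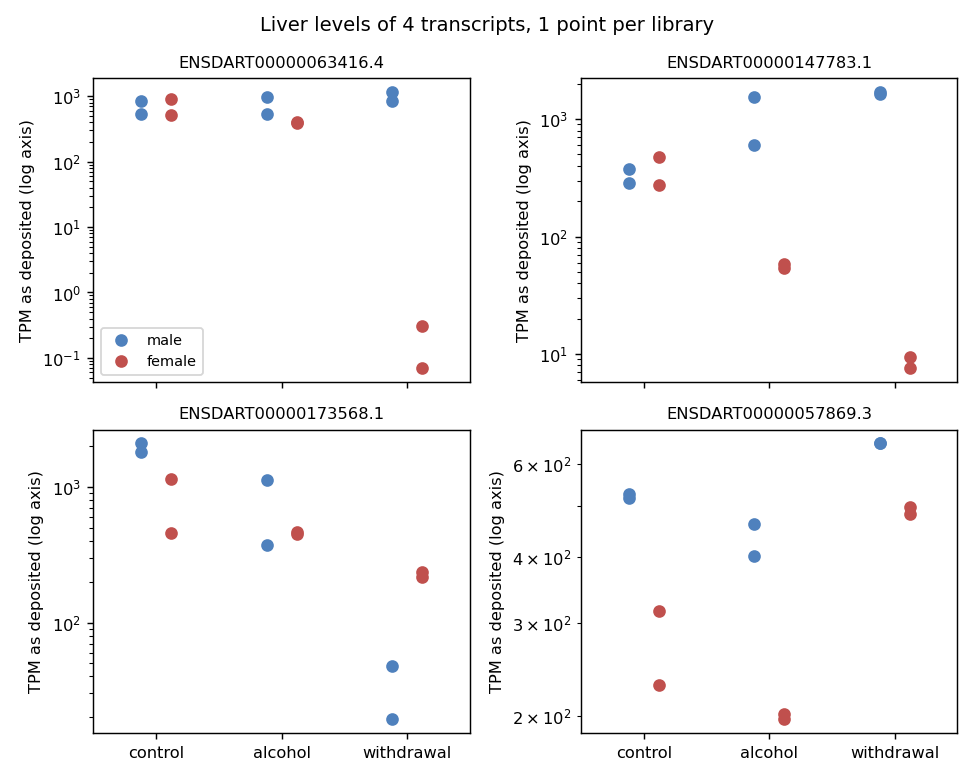
Deposited TPM (log axis) of 4 transcripts in the 12 livers, 1 point per library, with males in blue and females in red. ENSDART00000063416.4 and ENSDART00000147783.1 are low in withdrawal females, at 0.07 to 9.40 TPM, ENSDART00000173568.1 is low in withdrawal males, at 19.4 and 47.6 TPM, and ENSDART00000057869.3 is higher after withdrawal than under alcohol in both sexes.

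Taken by sex, 13 members fell and 4 rose in males, against 18.3% and 21.1% of all tested transcripts and 39.3% in either direction. In females 14 fell and 1 rose, against 14.6% and 13.4% and 28.0% in either direction. Members called lower in both sexes numbered 4, in males alone 9 and in females alone 9. ENSDART00000079003.5 was called lower in females and higher in males, and 14 members were called in neither sex. No shares over all tested transcripts are given for these classes, so they describe the members only. The counts rested on few libraries: males had 9 calls without withdrawal male replicate 1, and females had 6 without any 1 of the 4 alcohol or withdrawal female libraries. With the close pairs averaged females had 1 call. ENSDART00000063416.4 had a female change of -8.31 (SE 0.31, limma adjusted p = 5.24e-07).

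The difference between the sexes in this change was tested directly. It was called for 17 of 40 members, or 42.5%, where 33.1% of all tested transcripts were called, 14.8% above and 18.3% below. The female change lay above the male change for 9 and below it for 8, a split that became 11 and 6 without rescaling and 15 and 7 after quantile normalisation. For ENSDART00000063416.4 the female change was lower by a log2 difference of -8.90 (SE 0.44, limma adjusted p = 5.72e-06), with a male change of 0.59 that was not called (limma adjusted p = 0.168). For ENSDART00000147783.1 the difference was -3.59 (SE 0.60, limma adjusted p = 0.00323), and for ENSDART00000173568.1 it was 3.12 (SE 0.74, limma adjusted p = 0.0142). The number of calls was 3 with the close pairs averaged, 10 to 11 without any 1 of the 4 alcohol or withdrawal female libraries, and 9 without withdrawal male replicate 1. Fitting only the alcohol and withdrawal livers gave 26.

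**Figure D4:**
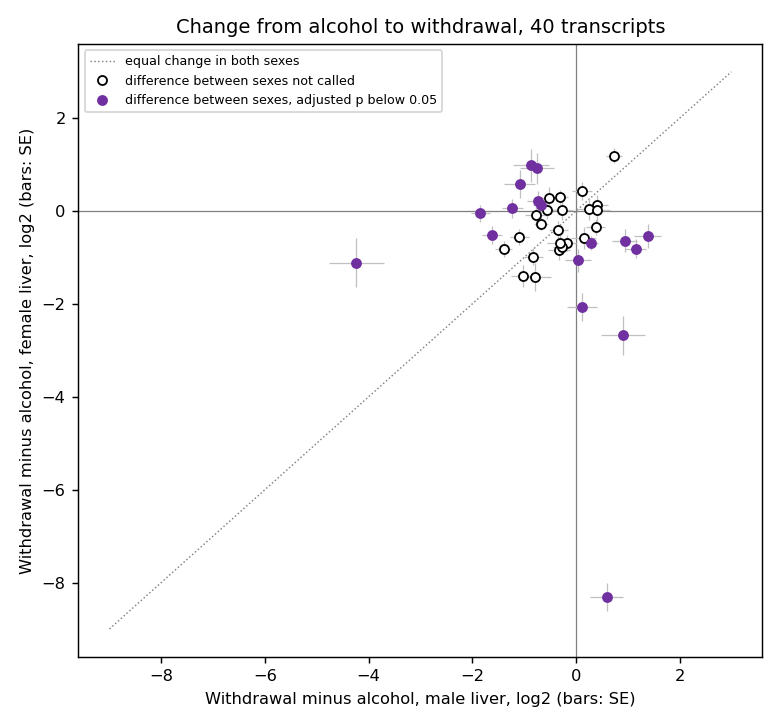
Change from alcohol to withdrawal in male livers (horizontal) and female livers (vertical) for the 40 transcripts, in log2 units with SE bars; filled points have a limma adjusted p below 0.05 for the difference between the sexes and the dotted line marks equal change. The 17 filled points lie on both sides of the line, 9 above and 8 below, and the lowest is at -8.31 in females and 0.59 in males.

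Comparisons with control livers are given as description without a test, because the control libraries chose the members at a minimum level. Against control males, both alcohol-exposed male libraries were above both controls for 19 members and below for 10, where 37.5% of all tested transcripts were above, 34.0% below and 71.5% either. Without rescaling the member counts were 31 and 3, against 50.8% above and 18.9% below over all tested transcripts. After quantile normalisation they were 26 and 7, against 35.6% and 35.2%. Against control females, alcohol-exposed females were above for 5 and below for 29, where 32.0% were above, 28.4% below and 60.4% either. Without rescaling the female counts became 8 and 16, against 42.7% and 14.6%. After quantile normalisation they were 7 and 23, against 29.3% and 31.4%. The median difference was 0.32 over the members in males and -0.57 in females. The other 237 abundant transcripts, which met the same liver minimum, had medians of -0.88 in males and -0.08 in females. Their male median was -0.26 without rescaling and -0.27 after quantile normalisation, and their female median turned to 0.20 and 0.09.

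After withdrawal, male libraries were above controls for 11 members and below for 13, against 43.1% and 36.7% of all tested transcripts and 79.8% either way. This even split did not hold under the other scalings. Without rescaling 26 were above and 10 below, where 50.9% and 27.1% of all tested transcripts were. After quantile normalisation the counts were 23 and 11, against 40.6% and 39.8%. Female libraries were above for 3 and below for 33, against 34.5% and 32.4% and 66.9% either way. Without rescaling the female counts were 6 and 23, against 45% and 20.7%. After quantile normalisation they were 9 and 26, against 34.8% and 31.9%. The medians over the members were 0.08 in males and -0.89 in females, and those over the other abundant transcripts were -0.79 and -0.59, which became -0.30 and -0.21 without rescaling and -0.19 and -0.04 after quantile normalisation. The male withdrawal median was -0.09 without control male replicate 2.

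The scaling of libraries shifted these values. Without rescaling the median difference from control over all tested transcripts reached 0.37, in alcohol-exposed males, where it was 0.03 after rescaling. The member medians without rescaling became 0.94 and -0.28 under alcohol and 0.58 and -0.51 after withdrawal, in males and females. After quantile normalisation they were 0.97 and -0.35, and 0.44 and -0.48. The sign in each sex was kept under both scalings. With the sexes pooled, the alcohol median was -0.23 and turned to 0.23 without rescaling and 0.10 after quantile normalisation, and the withdrawal median was -0.43 and turned to 0.01 and 0.04.

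Over both sexes, all 4 alcohol libraries lay below all 4 controls for 1 member, ENSDART00000173044.1, and above for none, where 6.81% and 8.98% of all tested transcripts did so, and 15.8% either way. All 4 withdrawal libraries lay below all controls for 9 members and above for none, against 10.4% and 14.0%, and 24.4% either way. Without rescaling 4 were below and 2 above after withdrawal, against 4.61% and 19.8% of all tested transcripts. Under alcohol 0 were then below and 1 above, against 1.66% and 15.3%. After quantile normalisation the withdrawal counts were 7 and 3, against 11.4% and 13%. The alcohol counts were then 1 and 1, against 7.28% and 7.7%. The widest such gaps were those of ENSDART00000173568.1 (-4.26) and ENSDART00000003508.8 (-1.82). The latter stood at 208 to 372 TPM in control livers, at 199 and 275 TPM in withdrawal males and at 51.7 and 59.5 TPM in withdrawal females. These TPM ranges overlap as deposited, and the gap holds after rescaling.

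The 9 brain libraries of alcohol-exposed and withdrawal fish took no part in the selection. In alcohol-exposed females 31 and 33 members were at 5 TPM or more, and in alcohol-exposed males 16 and 9 were. In the 3 withdrawal male brains 2, 2 and 3 members were, and in the 2 withdrawal female brains none was. The median level over members was 8.60 and 8.30 TPM in alcohol-exposed females, 3.76 and 2.97 TPM in exposed males, 2.09 to 2.29 TPM in withdrawal males and 0.21 and 0.10 TPM in withdrawal females.

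The withdrawal male medians overlapped those of control females. Withdrawal females had a lower median of member means than control males, 0.155 against 0.513 TPM. The library medians of these groups overlapped, at 0.21 and 0.095 TPM in withdrawal females and 0.725 and 0.185 TPM in control males. Listed at 0 were 9 and 14 members in the withdrawal female libraries, against 0 and 3 in the control male ones. All 40 members were lower in withdrawal than in alcohol-exposed female brains without overlap, as deposited, where 74.0% of 36682 brain transcripts were and 9.22% were higher. In males 23 of 40 were lower and 4 higher as deposited, against 65.5% and 10.9%. The deposited TPM of alcohol-exposed brains needs division by 2.04 to 2.18 for the typical transcript to match the other brains, whose divisors ran from 0.600 to 0.946. After that rescaling, an alternative chosen after seeing the data, the male comparison turned to 5 lower and 21 higher, against 30.4% and 29.2% of brain transcripts, while all 40 stayed lower in withdrawal females, against 34.5%. After it 25 members were below 5 TPM in both alcohol-exposed female brains, against 7 as deposited. That limit was set on deposited control levels. The same rescaling raises the control brains, whose divisors ran from 0.600 to 0.896, so the 25 are not set against the limit the controls met. The labels give no batch for these libraries, so exposure cannot be told apart from how the libraries were made.

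Between the sexes, 32 members were higher in alcohol-exposed female than male brains without overlap and 2 were lower, where 25.6% and 22.6% of brain transcripts were. In the liver, 33 of the 40 members were called lower in alcohol-exposed females. The 2 that were lower in female brains, named for that count, were ENSDART00000010918.4, at 26.0 and 21.8 TPM in males and 15.5 and 10.4 TPM in females, and ENSDART00000137962.1, at 12.2 and 7.21 TPM in males and 1.78 and 1.52 TPM in females. After withdrawal 39 members were lower in female than in male brains and none was higher, against 48.8% and 16.3%. After rescaling these were 38 and 1, against 30.7% and 32.6%. The alcohol counts were again 32 higher and 2 lower, against 26.0% and 24.1%.

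The highest brain level of any member was 47.8 TPM, for ENSDART00000027072.8 in an alcohol-exposed female brain, with 42.9 TPM in the other such library, 26.3 and 16.5 TPM in males under alcohol, and 11.6 to 13.5 TPM in withdrawal males. It was also the most abundant member in control liver. The deposited brain level was taken as a share of the level in the liver of the same sex and exposure. Its median over the 40 members was 2.39% in alcohol-exposed females, 0.355% in alcohol-exposed males, 0.324% in withdrawal males and 0.0374% in withdrawal females. It was 0.536% in control females and 0.0888% in control males, whose libraries chose the members. No rescaling was applied to these shares, and the alcohol-exposed brains are those with divisors of 2.04 to 2.18. The rank correlation over members between brain and liver of the same group was 0.65 in alcohol-exposed females and 0.49 in alcohol-exposed males. It was 0.63 in withdrawal males and 0.22 in withdrawal females. With the liver of the other sex it was 0.41, 0.45, 0.57 and -0.05, in the same order. For control males it was 0.63 with the same sex and 0.21 with the other sex. Control females went the other way, at 0.35 and 0.38. These are descriptions over 40 transcripts that share libraries and, between tissues, transcript length.

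**Figure D5:**
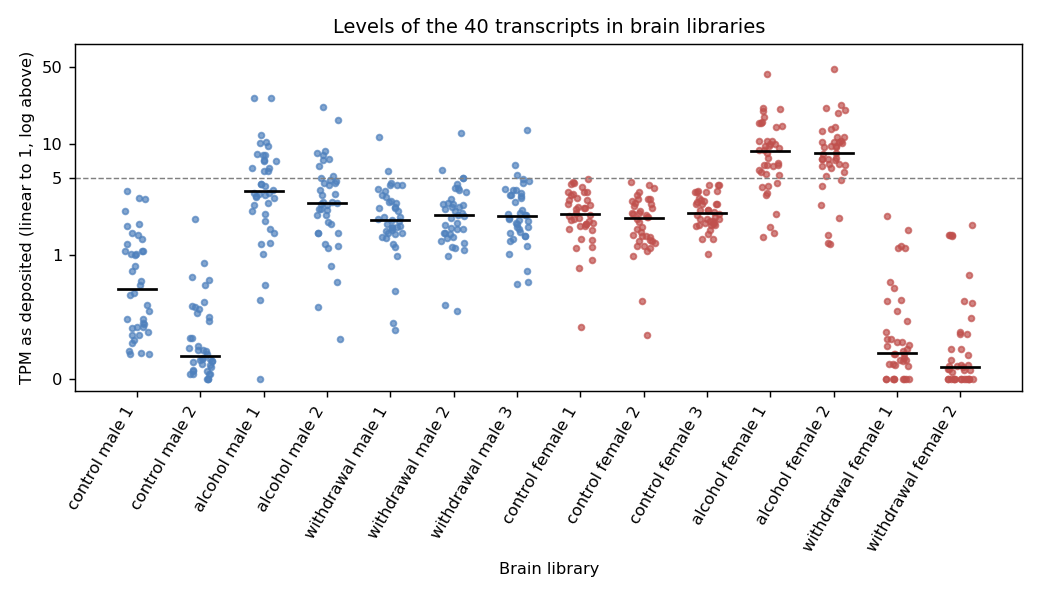
Deposited TPM of the 40 transcripts in the 14 brain libraries (1 point per transcript, males blue, females red, black bar: median), on an axis that is linear up to 1 and logarithmic above; the dashed line is the 5 TPM limit that the control libraries had to meet. Alcohol-exposed female brains have the highest medians, 8.60 and 8.30 TPM, and control male and withdrawal female brains the lowest, 0.10 to 0.73 TPM.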

How the data were processed

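The submitters' processing notes name FastQC 0.11.7, STAR 2.5.2, RSEM 1.3.1 and the danRer10 build, and per the labels' protocols the libraries were non-stranded. The authors deposited RSEM's transcript abundances as TPM, for 57918 transcripts in 14 brain and 12 liver libraries. TPM sums to a fixed total per library and carries no depth, so no interval or detection limit that needs it is given. Levels in the text are TPM as deposited.

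From these, liver TPM was divided by the median ratio to the geometric mean over the 14468 tested transcripts above 0 in all livers (divisors 0.725 to 1.22) and taken as log2(TPM + 1), which understates changes at low levels. Transcripts reaching 1 TPM in 2 or more livers were fitted with limma 3.58.1 in R 4.3.3, with a mean per group and a variance trend, and p-values were adjusted over all 21158. The procedure was run on simulated data and scored only for withdrawal against alcohol with the sexes averaged. The simulated libraries varied independently with the same spread at a given level, so the close female pairs were not reproduced. Python 3.11.15 and matplotlib 3.10.9 drew the plots.

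The members and lists were chosen with earlier results of these data known. Named transcripts are mostly the extremes of each comparison, the highest levels and the steadiest, of which a few are printed. For sex and for withdrawal against alcohol the extremes were taken among called, non-overlapping members. For the difference in change they were taken among called members, and against control among non-overlapping members, with no test. A few others were named after their values or counts were seen, as stated where they appear. Gene lists could not be used, since identifiers pair with no gene. Alternatives covered scaling, pseudocount, filter, variance model, libraries in the fit, the replicate block, single libraries, close pairs and the member thresholds.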

Additional observations from a re-analysis of the deposited data

Results flagged for a closer look

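The change from alcohol to withdrawal differed between female and male livers by the test of the difference itself for 17 of the 40 members, or 42.5%, against 33.1% of all tested transcripts, and for 3 with the close female library pairs averaged. Calls of this kind were thus common over all tested transcripts, and whether the members' share exceeds theirs was not tested. The largest differences were those of ENSDART00000063416.4 (female minus male change -8.90), ENSDART00000147783.1 (-3.59), ENSDART00000173568.1 (3.12) and 1 further member (-2.19, SE 0.41, limma adjusted p = 0.00556). With those pairs averaged, the first of these was called (limma adjusted p = 0.00100), and the others were not (limma adjusted p = 0.0515, 0.109 and 0.0721, at differences of -3.56, 3.15 and -2.16). The ranges of adjusted p over all alternatives were 4.90e-06 to 0.00100, 0.000485 to 0.0515, 0.00386 to 0.109 and 0.00185 to 0.0721. Without withdrawal male replicate 1, the third had an adjusted p of 0.0525. Groups of 2 libraries allow no test of a single outlying value.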

How the results depend on the processing

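Of 549 alternative values for 63 results, 496 kept their direction and their side of the threshold or stayed within the limits set for a count or level, 48 moved, 4 named-member calls were lost and 1 reversed. With the close female pairs averaged, the calls were 9 for withdrawal against alcohol with the sexes averaged, 1 in females, 3 for the difference between the sexes in that change and 15 for the sex difference under alcohol. Fitting only alcohol and withdrawal livers gave 26 for the difference in change. For withdrawal against alcohol it gave 25 with the sexes averaged, 23 in males and 22 in females. Of the 7 members left by a higher liver threshold, 42.9% were called for sex after withdrawal. Member medians against control, without rescaling and after quantile normalisation, were 0.94 and 0.97 (alcohol males), 0.58 and 0.44 (withdrawal males), -0.51 and -0.48 (withdrawal females), and -0.28 without rescaling in alcohol females. After quantile normalisation, member shares of TPM were 1.72% (alcohol females), 4.37% (alcohol males) and 1.74% (withdrawal females). Members below the limit in both alcohol female brains were 25 after rescaling, which also raises the control brain levels, and 24 at a limit of 10 TPM.

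Leaving out single libraries gave 9 to 19 calls for withdrawal against alcohol in males, 6 to 17 in females and 9 to 23 for the difference in change, and a withdrawal male median against control of -0.088 to 0.20, the reversal being without control male replicate 2. The cause of these shifts was not tested. Deviations of same-numbered libraries from their group means were little correlated between groups (15 group pairs, correlations of -0.04 to 0.10). The labels do not say whether a replicate number marks a shared pool or day. The fit with the replicate block called 18 members for withdrawal against alcohol, 16 for the difference in change and 37 for sex. A brain limit of 1 TPM left no member, and a limit of 0.05 for close pairs left no pair to average, so neither gave a value. Depth is unknown, so sampling error could not be separated from other spread.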
